A study of Mus musculus with 2 samples.

Results

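The genes described are the 3 uncoupling proteins (Ucp1, Ucp2 and Ucp3) and 7 genes of brown fat heat production (Cidea, Elovl3, Ppargc1a, Dio2, Prdm16, Otop1 and Cpt1b). They were taken by gene symbol from the 55536 genes in the tables, and all 10 were found. Expression was measured by total RNA-seq in adrenal gland tissue of male B6CASTF1/J mice aged 2 months. B6CASTF1/J is an F1 hybrid of a C57BL/6 and a CAST parent, and no treatment or introduced allele is named in the labels. There are 2 libraries in 1 group, called replicates 1 and 2. Each started from 300 ng of RNA, was prepared with a stranded kit and received ERCC spike-ins, which are synthetic RNAs of known mixture. The sample descriptions number the mice differently, whereas the library descriptions and the donor field give both replicates the same mouse or donor, so that the replicates are 2 mice rests on the sample descriptions. With 1 group, every comparison between libraries sets 1 library against 1 library, has no replicate check and carries no p-value.

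Uncoupling proteins sit in the inner mitochondrial membrane. UCP1 lets protons return to the matrix without making ATP, so that the energy of fuel oxidation is released as heat, and it is the defining protein of brown and beige adipocytes. UCP2 and UCP3 are its close relatives, with UCP2 found in many tissues including immune cells and UCP3 mainly in muscle and brown fat, and neither is a main source of brown fat heat. Noradrenaline acting on beta-adrenergic receptors raises cAMP in brown adipocytes, which frees fatty acids, activates UCP1 and induces the genes of the heat program. The adrenal gland itself makes steroids in its cortex and catecholamines in its medulla, and in mice it often lies in brown and white fat. Whether adjoining fat was trimmed from these glands is not given in the labels.

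The libraries carried the transcripts of the labelled tissue. All 8 adrenal cortex markers and all 6 adrenal medulla markers were detected in both libraries, with summed levels of 14338 and 15931 TPM (transcript abundance as a share of all transcripts, corrected for transcript length) for the cortex and 2114 and 1859 TPM for the medulla in replicates 1 and 2. The depth over genes was 36182740 expected counts for replicate 1 and 34149995 for replicate 2, and ERCC rows took 0.904% and 0.885% of the counts.

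The promoters of the uncoupling proteins, Ppargc1a and Dio2 are shown because cAMP is known to induce Ucp1, Ppargc1a and Dio2. Ucp2 and Ucp3 stand beside Ucp1 as its relatives. These genes were picked with their ratios between the libraries known, and whether any motif bears on those ratios was not tested. Each line holds the 250 bases before the RefSeq start, 5′ to 3′ on the gene's strand, from RefSeq on GRCm38.p6, the C57BL/6 reference; the CAST alleles these mice also carry may differ. The windows are chr8:83290098-83290347 on the plus strand for Ucp1, chr7:100493108-100493357 (plus) for Ucp2, chr7:100472741-100472990 (plus) for Ucp3, chr5:51567726-51567975 (minus) for Ppargc1a and chr12:90739039-90739288 (minus) for Dio2. Capitals mark the motifs searched on both strands, which were the cAMP response element TGACGTCA, its 5-letter core TGACG, the nuclear receptor core motif AGGTCA and the TATA box TATAAA. A core on the other strand reads CGTCA in these lines.
Ucp1: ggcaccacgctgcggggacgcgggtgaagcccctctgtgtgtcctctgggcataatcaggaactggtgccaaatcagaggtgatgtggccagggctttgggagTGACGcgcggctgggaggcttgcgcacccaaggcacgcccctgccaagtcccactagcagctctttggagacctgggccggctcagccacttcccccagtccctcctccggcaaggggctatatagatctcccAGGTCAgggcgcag
Ucp2: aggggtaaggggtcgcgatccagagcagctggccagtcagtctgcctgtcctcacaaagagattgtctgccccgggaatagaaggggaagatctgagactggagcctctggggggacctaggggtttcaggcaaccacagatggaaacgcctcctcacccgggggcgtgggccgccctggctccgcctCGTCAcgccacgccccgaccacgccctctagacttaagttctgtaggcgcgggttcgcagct
Ucp3: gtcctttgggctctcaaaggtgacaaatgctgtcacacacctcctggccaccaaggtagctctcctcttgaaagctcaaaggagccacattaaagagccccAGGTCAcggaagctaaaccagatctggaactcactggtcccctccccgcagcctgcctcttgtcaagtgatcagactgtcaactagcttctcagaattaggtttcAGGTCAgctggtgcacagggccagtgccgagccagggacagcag
Ppargc1a: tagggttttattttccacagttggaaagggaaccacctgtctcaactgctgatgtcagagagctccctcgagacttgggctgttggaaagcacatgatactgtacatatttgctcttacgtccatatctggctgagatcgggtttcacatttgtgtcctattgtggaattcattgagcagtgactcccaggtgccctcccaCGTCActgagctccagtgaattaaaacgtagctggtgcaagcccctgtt
Dio2: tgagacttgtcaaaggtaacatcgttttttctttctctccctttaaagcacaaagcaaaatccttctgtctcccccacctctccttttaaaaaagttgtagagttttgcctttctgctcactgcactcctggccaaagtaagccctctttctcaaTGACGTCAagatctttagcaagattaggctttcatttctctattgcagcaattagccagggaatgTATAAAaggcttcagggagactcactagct
Windows were searched for 7 members (Ucp1, Ucp2, Ucp3, Ppargc1a, Dio2, Prdm16 and Otop1). Among them, the full TGACGTCA element was found in the Dio2 window alone, at positions -95 to -88 counted back from the start. It is a palindrome, so it holds the core on both strands, and 1.55% of the 32851 mouse promoter windows of this length carry it. A TATAAA lay at -30 to -25 of Dio2, a motif carried by 12.4% of windows. The core TGACG was present in 4 of the 7 windows against 17.8% of all windows: in Dio2, in Ucp1 at -147 to -143, in Ucp2 at -62 to -58 on the other strand and in Ppargc1a at -49 to -45 on the other strand. AGGTCA, which 14.0% of windows hold, lay at -14 to -9 of Ucp1 and at -149 to -144 and -44 to -39 of Ucp3. None of these 4 motifs was found in the windows of Prdm16 and Otop1. The RefSeq start of Dio2 lies 600 bases from the start of its GENCODE gene and that of Otop1 1432 bases, whereas the other 5 lie within 21 bases. Promoter entries for Cidea, Elovl3 and Cpt1b were not used here. A match describes letters and is not evidence of a bound site.

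Ucp1 was the most abundant of the 10 genes in both libraries and among the most abundant nuclear mRNAs of the tissue. Replicate 1 had 629 TPM and replicate 2 had 303 TPM, a mean of 466 ± 230.3 TPM (SD, n = 2), which ranked 44 among 21938 nuclear protein-coding genes. Replicate 1 was the higher library by a wide margin, and the counts behind the levels were 37560 and 16861. The single annotated Ucp1 transcript spans chr8:83290352-83298452 on the plus strand (mm10).

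Ucp2 was nearly the same in both libraries, at 73.5 TPM in replicate 1 and 73.8 TPM in replicate 2 (73.7 ± 0.177, SD, n = 2; 3507 and 3329 counts). Its mean ranked 657. Ucp3 was much lower, at 17.0 TPM in replicate 1 and 8.59 TPM in replicate 2 (12.8 ± 5.93 TPM; 1515 and 722 counts), and its libraries lay as far apart as those of Ucp1. Ucp3 (chr7:100472990-100486432) and Ucp2 (chr7:100493337-100502020) are neighbours on the plus strand of chromosome 7, with 6904 bases between them.

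Genes that handle fat in brown adipocytes came next. Cidea, a lipid droplet protein that marks brown and beige fat, was at 234 TPM in replicate 1 and 117 TPM in replicate 2 (175 ± 83.1 TPM; 9240 and 4283 counts), ranking 249. Cpt1b, the muscle and brown fat form of the enzyme that commits fatty acids to entry into mitochondria, was at 57.8 and 32.5 TPM (45.1 ± 17.9; 5349.5 and 2690 counts). Elovl3, an elongase of very long chain fatty acids that is induced in brown fat by cold, was at 15.8 and 9.61 TPM (12.7 ± 4.39; 1039 and 582 counts). Replicate 1 was higher for each of these 3 genes.

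The enzyme and channel genes of the program were moderately expressed. Dio2, the deiodinase that turns thyroxine into the active hormone T3 inside the cell, was at 13.5 TPM in replicate 1 and 9.33 TPM in replicate 2 (11.4 ± 2.98; 3007 and 1930 counts). Otop1, a proton channel whose transcript is abundant in brown fat, was at 15.1 and 8.88 TPM (11.97 ± 4.36; 1781 and 978 counts). Both were higher in replicate 1, Dio2 by the smaller margin.

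The transcription regulators were the least abundant members. Ppargc1a, the coactivator that drives mitochondrial biogenesis and Ucp1 transcription, was at 3.51 TPM in replicate 1 and 4.18 TPM in replicate 2 (3.84 ± 0.474; 423 and 473 counts), with replicate 2 slightly higher. Prdm16, which sets and keeps brown adipocyte identity, was at 3.07 and 2.06 TPM (2.56 ± 0.714; 475 and 245 counts). All 10 genes were at 1 TPM or more in both libraries, and together they summed to 1062.2 TPM in replicate 1 and 568.6 TPM in replicate 2, of which Ucp1 made up 59.2% and 53.3%.

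**Figure D1:**
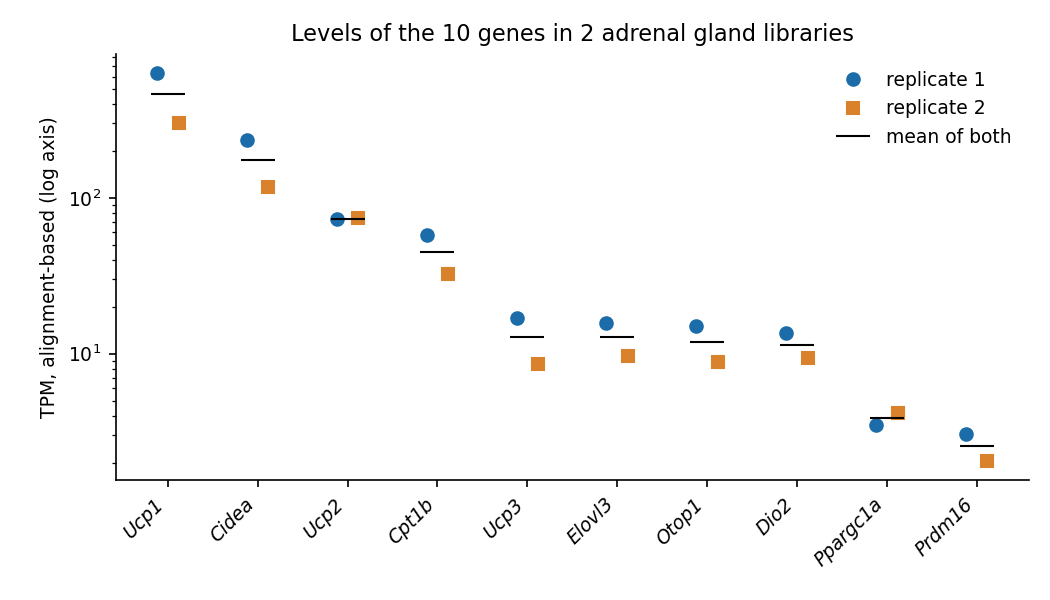
TPM of each of the 10 genes (log axis) in replicate 1 (circles) and replicate 2 (squares), with the mean of both as a bar. Ucp1 stands highest at 629 and 303 TPM, and the symbols of Ucp2 and Ppargc1a lie close together while those of the other 8 genes lie apart with replicate 1 on top.

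By mean TPM the order was Ucp1, Cidea, Ucp2, Cpt1b, Ucp3, Elovl3, Otop1, Dio2, Ppargc1a and Prdm16. Ucp3, Elovl3, Otop1 and Dio2 lay between 11.4 and 12.8 TPM, their ranges over the libraries overlapped, and their order differed between the libraries, so these neighbours did not differ beyond their spread. For the other neighbouring pairs the libraries did not overlap. A TPM is a share of all transcripts, and total RNA also holds noncoding and mitochondrially encoded RNAs. TPM was therefore also rescaled to nuclear protein-coding genes, which leaves both out. Ucp1 was then at 2115 in replicate 1 and 996 in replicate 2, Cidea at 787 and 383, and Ucp2 at 247 and 243.

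Between the libraries, 8 of the 10 genes were lower in replicate 2 than in replicate 1 by more than counting error. This is read from the log2 ratio of replicate 2 over replicate 1, computed from expected counts plus 0.5 over library sizes scaled by TMM (a scaling that assumes most genes do not differ), with an exact 95% Clopper-Pearson interval that covers counting error only. Of the 12430 genes averaging at least 100 counts, 20.3% were lower in replicate 2 by this measure, and 18.5% were higher beyond it, a group that held no member. More than a 2-fold difference was seen for 3 members, Ucp1, Cidea and Ucp3, all lower in replicate 2, where the background was 0.451% of genes in either direction and 0.225% in the lower direction. The number was 2 (Ucp1 and Cidea) by total count or TPM and 1 (Ucp1) with ERCC scaling, so the calls of Cidea and Ucp3 depend on the scaling. In bulk tissue, fewer cells of a type and less RNA per cell cannot be told apart.

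Ucp1 had 45.1% of its replicate 1 level in replicate 2 (log2 ratio -1.15, interval -1.17 to -1.12), the 15th lowest ratio of the 12430 genes. Cidea had a log2 ratio of -1.10 (-1.15 to -1.05) and Ucp3 of -1.06 (-1.19 to -0.93). Cpt1b lay just inside the 2-fold limit at -0.98 (-1.05 to -0.92), and Prdm16 at -0.95 (-1.18 to -0.72). These 5 genes held ratios among the 35 lowest. Otop1 at -0.86 (-0.97 to -0.74), Elovl3 at -0.83 (-0.98 to -0.68) and Dio2 at -0.63 (-0.72 to -0.55) were also lower in replicate 2. The central 95% of the 12430 genes had log2 ratios from -0.51 to 0.44 around a median of -0.007, and all 8 of these members lay below that range.

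Ucp2 and Ppargc1a lay inside it. The ratio of Ucp2 was -0.07 (-0.14 to 0.00), and its sign changed with the scaling, from -0.09 with read-based counts to 0.04 with ERCC scaling. Ppargc1a had a ratio of 0.17 (-0.02 to 0.36) that was positive under all scalings of the gene's own counts tried, from 0.08 to 0.28, but not once the gene models that lie within it are added. Across the whole table the spread between these libraries, as edgeR's common dispersion over genes that reached 10 counts in each library, was 0.01053. That corresponds to an SD of 0.21 for a log2 ratio. Because it was estimated from these same libraries and the share of all genes beyond it was not counted, it is not used to separate members.

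**Figure D2:**
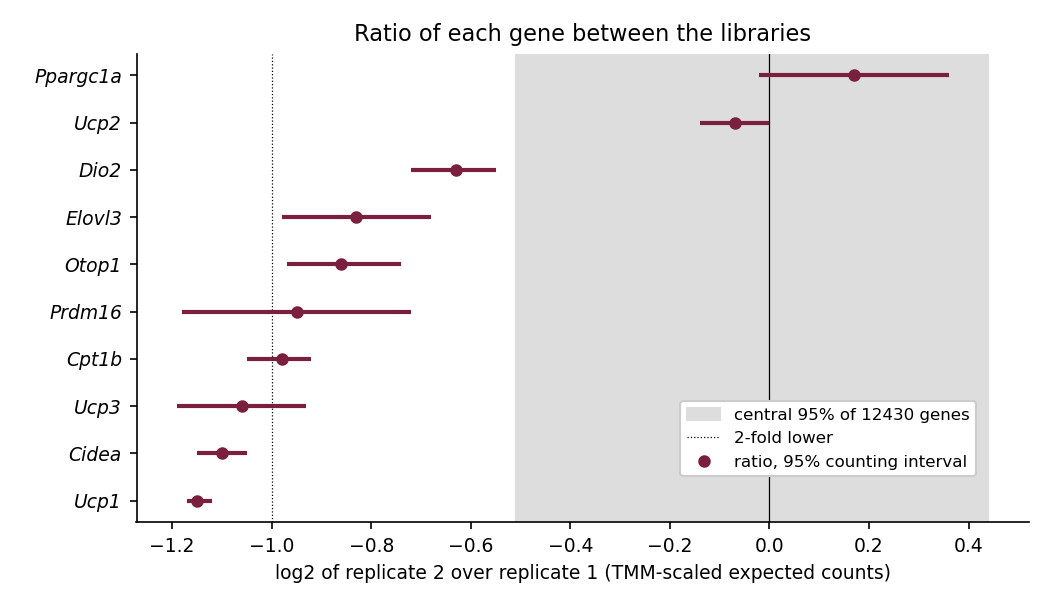
Log2 ratio of replicate 2 over replicate 1 for the 10 genes, with bars for the exact 95% counting interval, the grey band for the central 95% of 12430 genes (-0.51 to 0.44) and a dotted line at 2-fold lower. Ucp1, Cidea and Ucp3 lie beyond the dotted line, and Ucp2 and Ppargc1a alone lie within the band.

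The contrast among the uncoupling proteins does not depend on library scaling, because it is taken within each library. Ucp1 was 8.55 times Ucp2 by TPM in replicate 1 and 4.11 times in replicate 2. The count ratio of Ucp1 to Ucp2 in replicate 2 was 0.473 of that in replicate 1 (exact 95% interval of the odds ratio 0.449 to 0.498). Against Ucp3 the picture differed: Ucp1 was 37.0 times Ucp3 in replicate 1 and 35.3 times in replicate 2, a change by a factor of 0.942 (0.860 to 1.03) whose interval includes 1. Ucp3 relative to Ucp2 was 0.231 in replicate 1 and 0.116 in replicate 2 (factor 0.502, 0.453 to 0.556). Ucp1 and Ucp3 were thus lower in replicate 2 relative to Ucp2 by similar factors.

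Relative to Ucp1, 3 of the other 9 members kept a ratio whose interval includes 1, namely Ucp3, Cidea (factor 1.03, 0.991 to 1.08) and Prdm16 (1.15, 0.9797 to 1.34). The interval of Prdm16 is wide because it rests on few counts. The other 6 were all higher relative to Ucp1 in replicate 2. Cpt1b (1.12, 1.07 to 1.18), Otop1 (1.22, 1.13 to 1.33) and Elovl3 (1.25, 1.12 to 1.38) departed least, Dio2 further (1.43, 1.35 to 1.52), and Ucp2 (2.11, 2.01 to 2.23) and Ppargc1a (2.49, 2.18 to 2.85) most. The 4 most abundant brown adipocyte markers outside the 10 genes spread over the same range. Cox7a1 (1.08, 0.988 to 1.18) and Cox8b (1.10, 1.05 to 1.16), the subunits of cytochrome c oxidase typical of muscle and brown fat, stayed close to Ucp1. Letmd1, a mitochondrial protein needed for brown fat heat production, was at 1.54 and Kcnk3, a potassium channel that the adrenal cortex also makes, at 2.18. Of the genes listed as white adipocyte markers, the 4 most abundant lay between. Fabp4, the fatty acid carrier of adipocytes, was at 1.49 (1.45 to 1.52) and the lipid droplet coat protein Plin1 at 1.55. The partner of Plin1, Cidec, was at 1.63 and the secreted protease Cfd (adipsin) at 1.85. Whether these transcripts came from white or brown adipocytes was not tested. Other white markers, named after their values were seen, lay outside that range: Lep had a lower log2 ratio between the libraries (-1.67) than Ucp1, and Retn (-0.12) and Agt (0.20) had ratios near or above that of Ucp2.

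**Figure D3:**
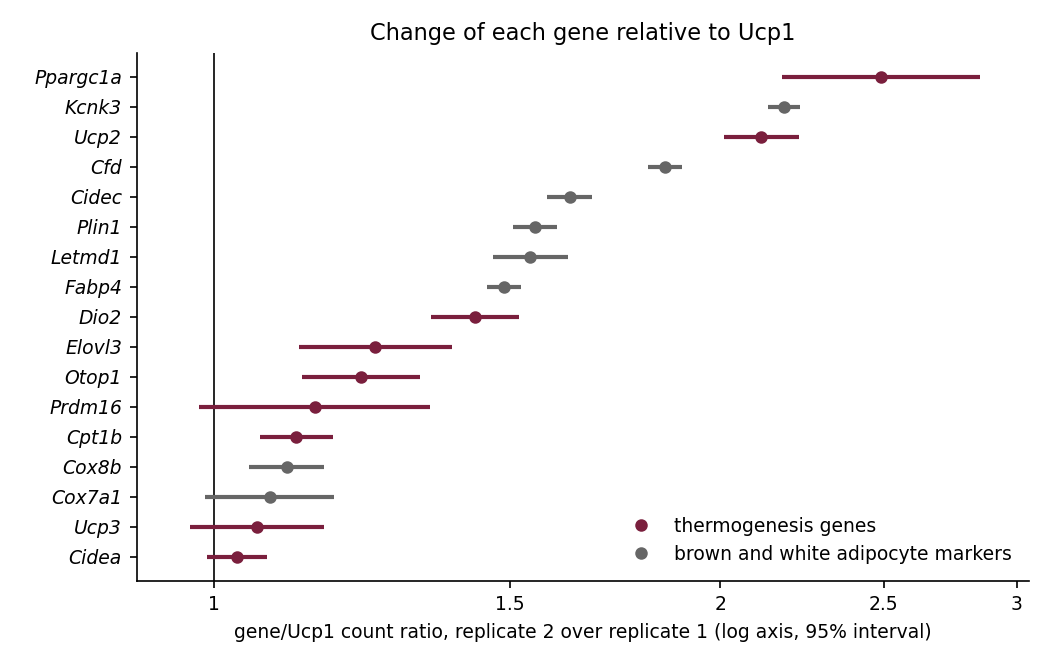
Change of each gene's count ratio to Ucp1, replicate 2 over replicate 1, on a log axis with exact 95% intervals that cover counting error only. Cidea, Ucp3, Cox7a1 and Prdm16 have intervals that include 1, the 4 most abundant white adipocyte markers lie from 1.49 to 1.85, and Ucp2, Kcnk3 and Ppargc1a lie beyond 2.

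The genes most like Ucp1 by their ratio were sought among 8238 other genes averaging at least 500 counts, by the absolute difference of the log2 ratio over the 2 libraries. With 2 libraries this likeness rests on 1 number for each gene. The nearest were Cyp2b10 (log2 ratio -1.15), Cib2 (-1.13), Cidea (-1.10), Klb (-1.08) and Bcl6 (-1.22). Cyp2b10 encodes a drug-metabolising cytochrome P450 from a family of similar genes, and its expected counts were whole numbers. Klb is the FGF21 co-receptor beta-klotho and Bcl6 a transcriptional repressor. Cyp2b10 was at 15.9 TPM in replicate 1 and 7.73 TPM in replicate 2, and Klb at 5.68 and 2.88 TPM.

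Which transcripts carried the members was only partly settled by these tables. Ucp1, Cidea and Dio2 have 1 annotated transcript each, and the other 7 have several. Transcript levels were deposited from 2 quantifiers, called alignment-based where they start from alignments to the transcriptome and read-based where they start from the read files. Both describe the same reads, so they are not replicates. By share of TPM, the leading transcript was the same in all 4 values for 3 genes, Ucp2, Ucp3 and Cpt1b.

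Ucp3-201, the full-length coding form, held 93.3% of Ucp3 TPM in replicate 1 and 94.6% in replicate 2 by alignment, and 79.5% and 80.0% read-based. The remainder of the read-based value lay mainly in the shorter coding Ucp3-202, at 16.2% and 15.99%. Cpt1b-201 (coding) held 82.9% and 79.4% by alignment and 81.5% and 89.6% read-based. Ucp2-210 led Ucp2 at 53.9% and 55.9% by alignment and 41.2% and 41.0% read-based, so the libraries matched within each quantifier. The coding Ucp2-202, of 3988 bases, held 12.9% and 12.8% by alignment and 7.76% and 7.65% read-based. It had 1435 and 1331 expected counts and 1335 and 1255 read-based counts. Other parts of Ucp2 were placed differently. The noncoding Ucp2-211 had 24.8% and 21.5% by alignment and 0% read-based. The coding Ucp2-203 had 0.530% and 0.203% by alignment and 31.4% and 29.6% read-based.

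The quantifiers gave opposite leads for Elovl3 and Otop1. Elovl3-202 held 68.0% in replicate 1 and 62.2% in replicate 2 by alignment, but Elovl3-201 held 60.9% and 60.1% read-based. Both are coding. For Otop1, the coding Otop1-202 led by alignment with 60.3% and 77.4%, whereas read-based it was near 0 and Otop1-203, annotated as a processed transcript, led with 66.9% and 71.0%. The share of Otop1 TPM in protein-coding transcripts was therefore 60.3% and 77.4% by one quantifier and 1.01% and 1.89% by the other.

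Ppargc1a and Prdm16, the least abundant members, had no stable lead by share of TPM, but each had the same top transcript by counts. The lead of Ppargc1a was the 488-base coding Ppargc1a-202 in 3 of 4 values and Ppargc1a-203, the 6464-base coding form, in the read-based value of replicate 2. Ppargc1a-202 rested on 16.5 and 24.3 expected counts and, read-based, on 18.4 and 3.69 estimated counts. It held 45.4% of the gene's read-based TPM in replicate 1 and 15.3% in replicate 2. The read-based level of Ppargc1a was 8.91 TPM in replicate 1 and 5.99 TPM in replicate 2, the opposite order to its alignment-based TPM and to its counts from both quantifiers. Prdm16 was led by Prdm16-207 in replicate 1 and Prdm16-212 in replicate 2 by alignment, on 29.4 and 11.6 expected counts. By counts, which are not corrected for length, the long coding forms came first in all 4 values. Ppargc1a-203 had 249 and 351 expected counts and 286 and 373 read-based counts in replicates 1 and 2. Prdm16-202, of 8429 bases, had 225 and 128 expected counts and 317 and 147 read-based counts.

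**Figure D4:**
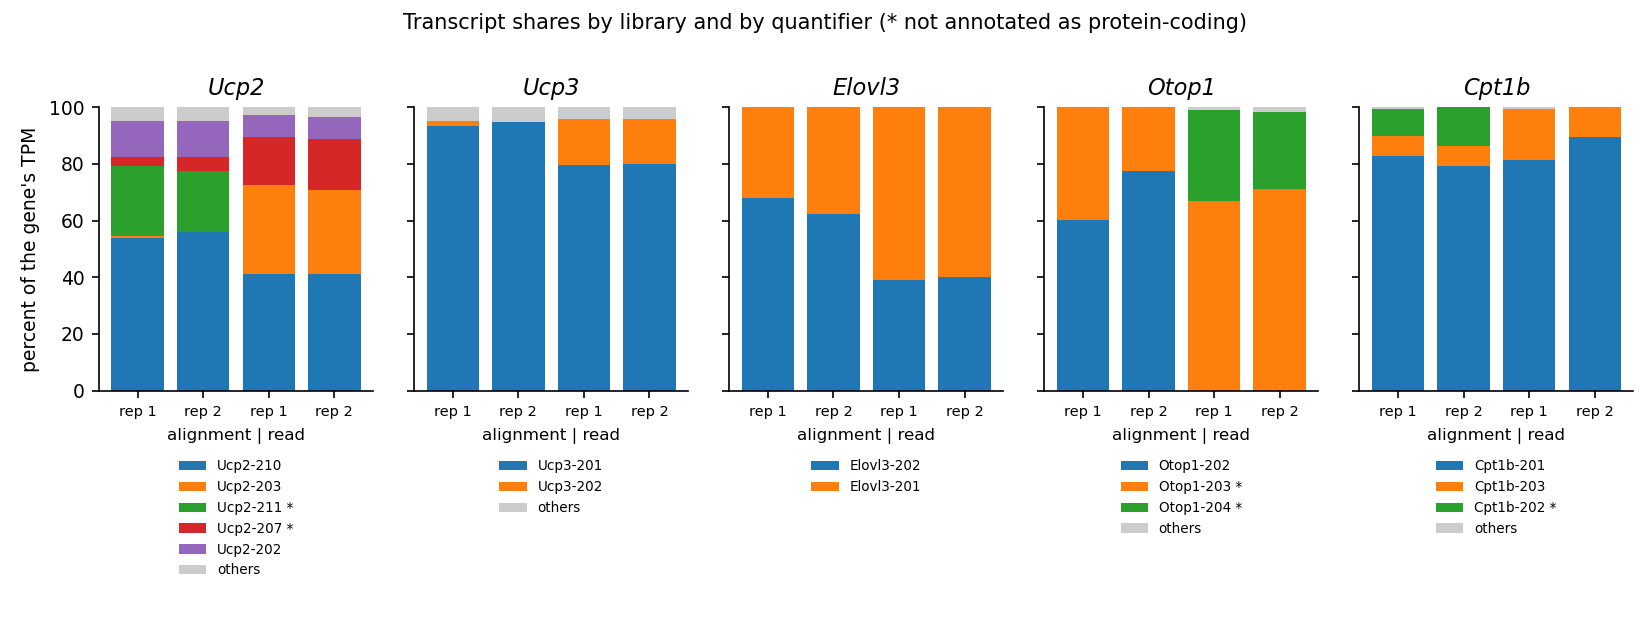
Share of each gene's TPM held by its transcripts, in percent, for replicates 1 and 2 by alignment (left pair of bars) and read-based (right pair), with an asterisk on transcripts not annotated as protein-coding. Ucp3-201 and Cpt1b-201 lead in all 4 bars, while the lead of Otop1 is Otop1-202 by alignment and Otop1-203 read-based.

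At the gene level the quantifiers kept the order of the libraries for Ucp1, at 999 and 507 TPM read-based, and for Cidea, at 485 and 255 TPM. Read-based TPM exceeded alignment-based TPM by a median of 0.82 on the log2 scale over the members in each library, beside 0.85 and 0.93 over 11892 protein-coding genes. Ucp2 exceeded it by 1.27 and 1.37.

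Overlapping genes bear on a few members. The kit is stranded, but whether the counting used the strand is not given in the sources used here. Of 13 genes that overlap a member, chosen for mention after their values were seen, Gm44502, a readthrough gene of Cpt1b and its neighbour on the same strand, moves Cpt1b across the 2-fold limit. It held 274.5 and 0 expected counts but 1639 and 1109 read-based counts, and the log2 ratio of Cpt1b alone was -0.98 by alignment and -1.15 read-based. With Gm44502 added, the ratio was -1.06 and -0.99, so on which side of 2-fold Cpt1b lies depends on how these reads are split. Within Ppargc1a, 3 gene models on the same strand (Gm43605, Gm42614 and Gm42615) held 105 counts in replicate 1 and 25 in replicate 2, of which Gm43605 had 64 and 9. With them added, the log2 ratio of Ppargc1a was -0.08 (-0.26 to 0.10) instead of 0.17, so its sign depends on whether these reads are counted with the gene. The antisense genes at Ucp3 (Gm10603) and Cidea (B430212C06Rik) held 32 and 17 and 20 and 14 counts, small beside the members they overlap, and those at Prdm16 held none.

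Other genes of the heat program and of its supply lines were read from gene lists, by how many of the genes averaging at least 20 counts were lower in replicate 2 by more than counting error. Over all 15660 genes at that level, 17.8% were lower beyond counting error, 16.4% were higher beyond it, 51.1% had a ratio below 0, and the median log2 ratio was -0.006. The lists share genes, so their counts are not independent. Another list also held 4 of the brown adipocyte markers, 2 of the white, 2 of the fatty acid uptake genes and 3 of the regulators. The 10 thermogenesis genes, none of which is in another list, had a median of -0.90. Of 16 further brown adipocyte markers, 15 were found and 12 reached at least 20 counts. Of these 12, 11 were lower beyond counting error and none was higher, with a median of -0.70. The marker not matched was Gyk, an older symbol of Gk. Gk (log2 ratio -1.06) is counted below among heat cycles that do not use UCP1. Fabp3, a fatty acid carrier of muscle and brown fat, was at 43.4 TPM in replicate 1 and 15.5 in replicate 2 (log2 ratio -1.58). Its count was not whole in replicate 1 (1221.55), so that some of its reads there were shared with another gene. In replicate 2 its count was whole (405). Cox7a1 was at 139.5 and 72.9 TPM (-1.04) and Cox8b at 509.7 and 271.5 TPM, with a scaled count ratio at the 2-fold limit (interval -1.07 to -0.94) and a TPM ratio inside it. Kcnk3 was at 371 and 385 TPM, with a ratio of -0.02 that counts as lower only because 50551 counts make the interval narrow. Zic1, Lhx8 and Bmp8b, named after their values were seen, had at most 10 counts in either library.

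Genes listed as markers of beige fat, the inducible heat-producing adipocytes of white depots, were mixed, with 2 of 5 lower and 1 higher. Their median of -0.62 becomes -0.27 when at least 100 counts are asked for. Whether these genes mark beige rather than brown adipocytes in this tissue was not tested. Slc36a2 was at 42.3 TPM in replicate 1 and 29.3 in replicate 2, P2rx5 at 3.15 and 2.11, Cited1 at 5.59 and 9.71, and Tmem26 at 2.00 and 2.12. White adipocyte markers were lower in 8 of 9 with a median of -0.45. Fabp4 was at 1490.1 and 1068 TPM, Cfd at 1275 and 1139.6, and Lep, the satiety hormone leptin, at 5.04 and 1.30, over 2-fold apart (-1.67). Most genes listed as brown or white fat markers were thus lower in replicate 2, and the size of their ratios differed between genes. Which kind of adipocyte their transcripts came from was not tested. Esrrg and Agt, named after their values were seen, were not lower.

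The adrenergic signal and lipolysis genes were lower in 11 of 12, with a median of -0.42. Pnpla2 and Lipe, the first lipases of triglyceride breakdown, were at 366 and 269 TPM and at 133.8 and 103.4 TPM. Gnas, the stimulatory G protein, was at 839 and 718 TPM and Prkar2b, a regulatory subunit of protein kinase A, at 148 and 116 TPM. Adrb3, the beta receptor of adipocytes, named after its values were seen, was at 22.2 and 20.8 TPM (-0.23).

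Of 9 fatty acid uptake and activation genes 5 were lower in replicate 2 and none higher (median -0.56). Beside Fabp3 (-1.58), they included lipoprotein lipase Lpl at 409.6 and 278 TPM, the fatty acid transporter Cd36 at 237 and 162 TPM, and Acsl1, which activates fatty acids, at 242 and 181 TPM. Of 17 genes of the carnitine shuttle and beta-oxidation 16 were lower (median -0.50). Hadhb was at 310.2 and 239.6 TPM, Acadm at 264 and 206, Acaa2 at 245 and 158, and Acadvl at 218 and 161, all enzymes of the beta-oxidation spiral. The exception was Cpt1a, the liver-type relative of Cpt1b, named after its values were seen, at 62.0 and 72.3 TPM (0.13). Of the 3 Cpt1 forms, Cpt1b was at -0.98 and Cpt1a at 0.13. The little-expressed brain form Cpt1c, named after its values were seen, was at -0.23 (-0.45 to -0.01).

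Relatives of the members were mixed in direction. The 5 other elongases with enough counts had a median of -0.14, with 3 lower and 1 higher. Elovl5, the most abundant, was at 142 and 149 TPM, Elovl1 at 23.4 and 28.5, Elovl6 at 17.1 and 16.4, and Elovl7 at 0.970 and 0.780. Elovl4, named after its values were seen, had 58 counts in replicate 1 and 17 in replicate 2, a ratio of -1.73 (-2.64 to -0.96) on few counts. Among carriers related to the uncoupling proteins and adenine nucleotide carriers, 3 of 7 were lower and 2 higher (median -0.08). Slc25a30, a close relative of the uncoupling proteins, had 4953 and 8887 counts and a ratio of 0.85, in the opposite direction to Ucp1 and Ucp3. Slc25a5 and Slc25a4, which exchange ADP for ATP, were at 145.7 and 136 TPM and at 59.6 and 56.8 TPM, and Slc25a11, the oxoglutarate carrier, at 40.6 and 40.8 TPM. Among CIDE and OTOP relatives, Cidec alone reached 20 counts (283.5 and 219 TPM), Otop2 had no count and Otop3 had 0 and 1.

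Regulators of the program were divided, with 10 of 21 lower, 4 higher and a median of -0.06. Cebpa, an adipogenic factor, was at 92.2 TPM in replicate 1 and 55.0 in replicate 2 (-0.84), whereas Cebpb was at 106 and 117, and the corepressors Ctbp1 and Tle3 were at 66.1 and 73.1 and at 30.6 and 36.0. Among those named after their values were seen, Ppara (-0.73), Ebf2 (-0.68) and Pparg (-0.56), factors of fatty acid oxidation, brown fat identity and adipocyte identity, were lower, and Cebpd (0.72) was higher. The thyroid hormone axis beside Dio2 had 3 of 6 lower and none higher (median -0.19), with Thrsp, a hormone-responsive lipogenic gene, at 159.9 and 151 TPM. The receptors Thra and Thrb were at 24.5 and 21.4 and at 14.8 and 11.8 TPM. Heat cycles that do not use UCP1, such as creatine and calcium cycling, had 3 of 9 lower and 3 higher (median 0.20). There Atp2a2 was at 53.8 and 57.1 TPM, Slc6a8 at 39.7 and 49.7, Ckb at 27.9 and 27.4, and Gk, glycerol kinase, at 30.8 and 14.5 (-1.06), over 2-fold lower.

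**Figure D5:**
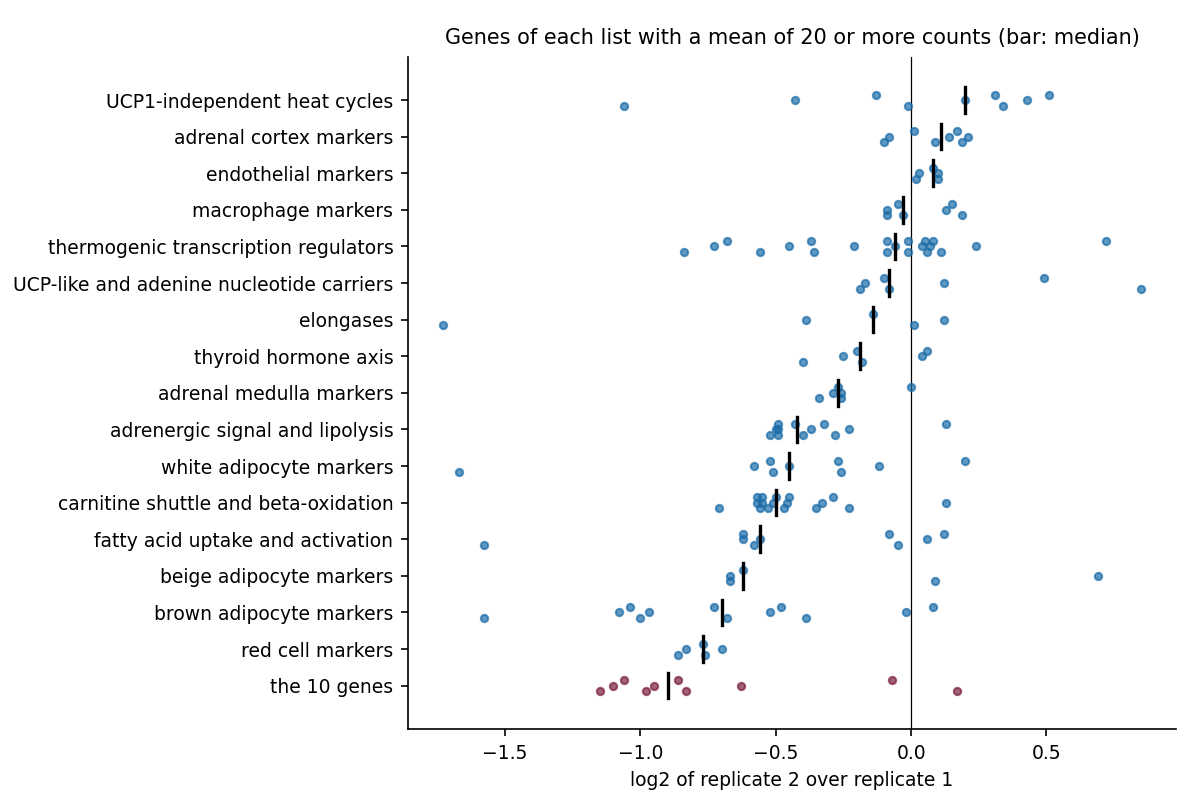
Log2 ratio of replicate 2 over replicate 1 for each gene averaging at least 20 counts, by gene list, with a bar at each list's median, for lists with at least 5 such genes. The 10 thermogenesis genes have the lowest median (-0.90), followed by red cell markers (-0.77) and brown adipocyte markers (-0.70), and adrenal cortex markers lie at 0.11.

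Markers of other cell types were measured beside these results. All 5 red cell markers were lower in replicate 2, with a summed level of 1948.5 TPM in replicate 1 and 1174 in replicate 2 and a median of -0.77, and adrenal medulla markers were lower in 5 of 6 (median -0.27). Cortex markers were higher in 5 of 8 and lower in 2 (median 0.11), and endothelial markers higher in 3 of 5 (median 0.08). Macrophage markers, of a cell type that makes Ucp2, had 1 of 7 lower and 1 higher (median -0.03). The part of these cell types in the members' ratios was not tested. For skeletal muscle, which makes Ucp3 and Cpt1b, 10 of 11 markers had a mean under 20 counts and Myh2 had none in either library, while Myl1 had 204 and 123. The summed level of the muscle markers was 7.37 and 5.22 TPM. No lymphocyte marker exceeded 16 counts.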

How the data were processed

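Total RNA-seq of 2 adrenal gland libraries was analysed from the deposited tables. Their build was mm10 and their annotation GENCODE M21, per the labels and notes. Aligner and quantifier names are not given in the sources used here. The authors deposited expected counts and TPM per gene and transcript from transcriptome alignments, and estimated counts and TPM per transcript from the read files, per the file headers; the latter were summed per gene. Depth was 36182740 and 34149995 expected counts in genes. Intervals are computed from counts and cover counting error only. Reads carry no molecular identifiers, so copies of a molecule count as separate reads and the intervals may be too narrow. ERCC, phiX and transfer RNA rows were left out of gene counts.

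Ratios used expected counts plus 0.5 over TMM-scaled library sizes (edgeR 4.0.16, R 4.3.3), with exact Clopper-Pearson intervals (scipy 1.17.1). Counts were rounded to whole numbers for edgeR, for DESeq2 1.42.0 as an alternative, and for ratios between genes. The 2-fold rule was applied to genes averaging at least 100 counts. Alternatives were other scalings, count minimums, added counts, TPM and read-based values. Procedures were tested on data simulated with 3-fold changes from the models they assume, which checks the calculations and not the spread of real libraries. The size was set to 3-fold after a first run with smaller changes, of which fewer passed the 2-fold rule. Smaller changes near the 2-fold limit are recovered less often.

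The members and the 19 gene lists were chosen with earlier results of these data known. All members were named, with the 4 genes of highest mean TPM in each list used for the program. Every list gene over 2-fold apart, the 5 genes nearest Ucp1 in ratio, and leading transcripts were also named. Any other name was picked with its values known, which the text does not mark in every case. Windows from the RefSeq promoter table, matched by symbol, were used for 7 of 10 members. Signal tracks were not analysed here. The values of 1 gene that the naming rule would include are not reported here.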

Additional observations from a re-analysis of the deposited data

How the results depend on the processing

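No paired analysis was possible because there is 1 group. Leaving out a library leaves no ratio, so such alternatives were run only for levels and transcript shares, which then equal the other library's value. The number of members over 2-fold apart was 3 with TMM, 1 (Ucp1) with ERCC scaling, 2 (Ucp1 and Cidea) by total count or by TPM, and 4 (with Cpt1b) with read-based counts; the side of Ucp3 and Cidea depends on the scaling and that of Cpt1b on the quantifier. Adding same-strand overlapping genes, chosen after seeing the data, gave -0.08 for Ppargc1a and -1.06 for Cpt1b. Over all genes the count was 56 with a minimum mean of 100 counts, 244 with 20 and 21 with 500. Of the calls over 2-fold, 28 were higher and 28 lower with TMM, 38 and 19 by total count, 45 and 17 by ERCC scaling, and 49 and 22 by TPM, where the median of all genes moved to 0.069, 0.10 and 0.084. Members lower beyond counting error numbered 7 to 9 over the alternatives. The ratio of Prdm16 was -0.58 by TPM against -0.95 by counts. The replicate dispersion was 0.01053 by edgeR; the median of the DESeq2 estimates was 1e-08, the lower bound it allows. Depth limits Prdm16 and Ppargc1a, with 245 to 475 counts, most; the cause of the differences between settings was not tested.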
